A study of Homo sapiens with 4 samples.

Results

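The genes described here were the 10 members of a list of ERBB2 amplicon genes on the long arm of chromosome 17. They were MED1, CDK12, STARD3, TCAP, PGAP3, ERBB2, MIEN1, GRB7, IKZF3 and MED24. They were followed through the m6A peak lists of meRIP-seq in OE-19 cells, an established cell line of adenocarcinoma of the esophagogastric junction (AEG). In this assay an antibody against N6-methyladenosine (m6A) enriches the RNA fragments that carry the mark, and a place where they pile up over a background is called as a peak. The series held 4 samples of this line, grown in RPMI1640 with serum, which were 2 immunoprecipitations (IP) with the m6A antibody and 2 inputs. The 2 IP replicates had a peak list each, and for the inputs none was analysed here. The data therefore held a single group with values, without a control condition, and each value below is a description without a test. The study calls its replicates biological, and the labels do not say whether they came from separate cultures.

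A peak was assigned to a gene when its summit, the position of the highest pile-up, lay in the gene body of GENCODE version 44 on hg38. By this rule the 10 genes held 18 of the 24607 peaks of replicate 1, with 15 summits in exons and 3 in introns. In replicate 2 they held 14 of 19318 peaks, with 10 exonic and 4 intronic. Exonic peaks were found in both replicates in 5 of the 10 genes, namely MED1, CDK12, STARD3, PGAP3 and IKZF3. The share over all 20046 protein-coding genes was 33.4%. MED24 had exonic peaks in replicate 1 alone, which made 6 of 10 genes there, where 42.4% of all protein-coding genes had one, and 5 of 10 in replicate 2, where 34.1% did. ERBB2, GRB7, MIEN1 and TCAP had no exonic peak in either list. With 10 genes, these counts say little about how the group stands against the genome.

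ERBB2 encodes a receptor tyrosine kinase of the EGF receptor family, and amplification of its locus, together with a varying number of neighbours, is a known driver event in breast and gastroesophageal adenocarcinomas. OE-19 is known as a line with this amplification. Copy number and gene expression were not measured in the lists. m6A is placed on mRNA by the METTL3-METTL14 complex, mostly at an adenine followed by a cytosine and preceded by purines, and is found most often in long internal exons and around stop codons, where reader proteins that act on RNA stability or translation can bind it.

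The sequences under the peaks of these genes are shown first, since the results turn on where in the transcript the peaks lie. They were read from the hg38 reference on the strand of the gene, 5′ to 3′. Capitals mark GGAC, the core of the commonest m6A motif. They also mark the variant AGAC, as well as the variant GAAC and, where present, the variant AAAC. Coding stretches reach 50 nt to each side of the summit. Stretches in 3′ UTRs are 29 nt placed on the GGAC nearest to the summit, or on the summit where there was none. The first group is from coding exons with a peak in both replicates, shown at the replicate 1 summit.
MED1, chr17:39407885-39407985, minus strand: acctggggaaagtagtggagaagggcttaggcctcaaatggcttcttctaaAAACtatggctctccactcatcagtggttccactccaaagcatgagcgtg
MED1, chr17:39409780-39409880, minus strand: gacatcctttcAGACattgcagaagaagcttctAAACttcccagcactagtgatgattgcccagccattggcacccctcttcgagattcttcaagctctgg
CDK12 exon 2, chr17:39471347-39471447, plus strand: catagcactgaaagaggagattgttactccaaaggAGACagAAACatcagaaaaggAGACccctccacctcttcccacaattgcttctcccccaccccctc
CDK12 exon 14, chr17:39530797-39530897, plus strand: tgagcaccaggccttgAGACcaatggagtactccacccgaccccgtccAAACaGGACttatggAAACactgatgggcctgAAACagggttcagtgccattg

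The second group is from 3′ UTRs with a peak in both replicates, where STARD3 has a stretch for each replicate because the summits differed.
STARD3, replicate 1, chr17:39663147-39663175, plus strand: ctgcctcctggaGGACcagattgctctgc
STARD3, replicate 2, chr17:39662988-39663016, plus strand: actgcccacatgGGACctggccccaggct
PGAP3, chr17:39672679-39672707, minus strand: cttcttGAACttGGACatgaaggatgtgg
IKZF3, chr17:39759602-39759630, minus strand: cctgaccctttaGGACcatGGACtcagaa

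The last stretch is the end of the ERBB2 coding sequence up to its stop codon. It is shown because it holds 4 GGAC and 1 GAAC and no peak in either list.
ERBB2, chr17:39727944-39728044, plus strand: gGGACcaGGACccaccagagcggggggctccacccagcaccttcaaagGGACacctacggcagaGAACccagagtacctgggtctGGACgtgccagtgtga

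The fold enrichment is the pile-up of IP fragments at the summit over the local background of the peak caller, with a pseudocount of 1 added to both. The pile-up and the background themselves are not listed and were solved here from the fold enrichment and the p-value. Each of the 24607 and 19318 peaks had a solution with a whole number of IP fragments, and 92.3% and 91.6% had only 1. That a control library entered peak calling was inferred from these solutions and is not stated, so every background printed here rests on that reading. On it, the background is the number of control fragments at the same place, or its mean over a wider window where that was higher. The IP pile-up was multiplied by 0.8297 in replicate 1 and 0.9318 in replicate 2 before the comparison, as the caller does when the control library is the smaller. The lists end at a q-value of 0.05, so a gene without a peak had no place that passed this threshold, which does not show that it carried no m6A. Intervals on IP fragments are 95% Poisson intervals and cover counting error only. They do not hold for pile-ups near the ceiling described below for PGAP3.

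Among the genes with peaks, fold enrichment was close to that of the whole lists in its middle and came near their low end. It did not reach their high end, since the highest over all exonic peaks was 31.6 in replicate 1 and 38.05 in replicate 2. The 15 exonic peaks of replicate 1 had a median fold enrichment of 5.18 and a range from 1.68 to 14.6, against a median of 5.29 and quartiles of 3.71 and 7.71 over all 20134 exonic peaks. The 10 of replicate 2 had a median of 5.30 and a range from 1.44 to 8.56, against 4.82 with quartiles of 3.42 and 6.68 over 13113. The lowest value in each replicate was that of PGAP3, the highest that of STARD3 in replicate 1 and of CDK12 in replicate 2. Their background was higher than that of the usual exonic peak. In replicate 1 the median was 8 fragments for the members and 5 for all, and in replicate 2 it was 11.9 and 8. The peaks were also wide. Their median width was 496 bp in replicate 1, where that of all exonic peaks was 314 bp, and 714.5 bp in replicate 2, where it was 361 bp.

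**Figure D1:**
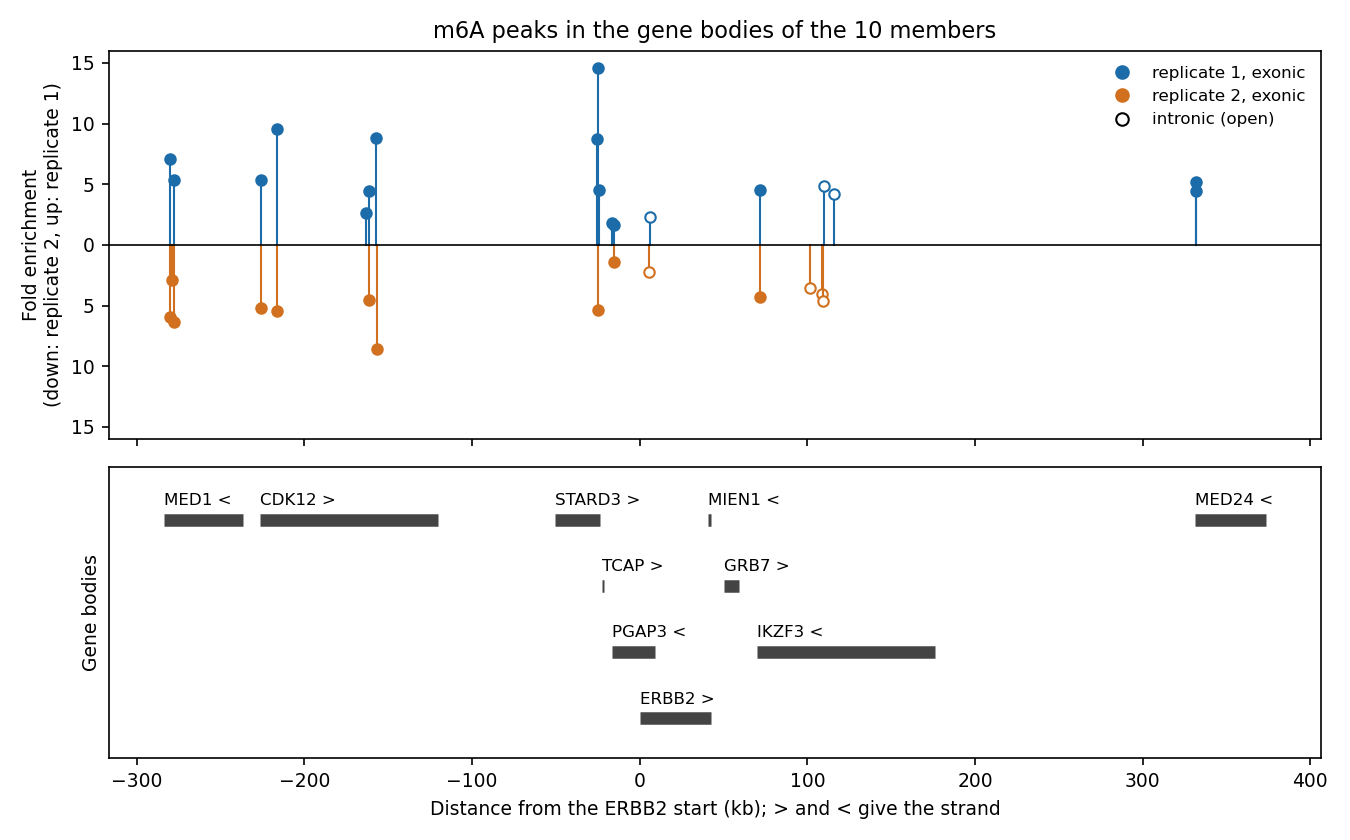
Peaks in the bodies of the 10 genes by distance of the summit from the ERBB2 start in kb (x axis), with fold enrichment on the y axis drawn upwards for replicate 1 and downwards for replicate 2. Filled points are exonic and open points intronic. Bars in the lower panel are gene bodies with the strand as > or <. MED1, CDK12, STARD3, PGAP3 and IKZF3 have filled points in both directions, MED24 upwards only, and the points of PGAP3 are the lowest filled ones, at 1.68 and 1.79 in replicate 1 and 1.44 in replicate 2.

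Of the 15 exonic peaks in replicate 1, 9 overlapped a peak of replicate 2 by at least 1 bp, or 60% (95% Wilson interval 35.8 to 80.2%), where 60.2% of all exonic peaks did. In the other direction 10 of 10 were shared (72.2 to 100%), against 95% over all exonic peaks. The intronic peaks were shared in 1 of 3 cases in replicate 1 and 1 of 4 in replicate 2, where 39.6% and 36% of all intronic peaks were. All of these shares lay near the background of the lists.

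CDK12 and MED1 act at the level of transcription, and both carried their peaks in coding exons. CDK12 is a cyclin-dependent kinase that phosphorylates the tail of RNA polymerase II and is needed for full expression of long genes. Its exonic peaks numbered 5 in the first list and 4 in the second, the most of the 10 genes, and were spread over exons 1, 2, 12, 13 and 14 of its 14 exons. The peak of exon 14, the last exon, lay 467 nt before the stop codon in replicate 1, with 105 IP fragments (85.9 to 127.1) over a background of 9 and a fold enrichment of 8.81. In replicate 2 it lay 333 nt before the stop codon, with 100 fragments (81.4 to 121.6) over 10 and a fold enrichment of 8.56. This was the strongest of the CDK12 peaks by q in both lists, with −log10 q of 49.99 and 51.7.

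The peak of CDK12 exon 2 had almost the same IP pile-up in the replicates, 84 fragments (67.0 to 104.0) in replicate 1 and 87 (69.7 to 107.3) in replicate 2. Its background differed, at 6.40 and 14 fragments, and its fold enrichment was 9.56 and 5.47. The larger fold enrichment of replicate 1 thus came with a lower background and not with more IP fragments. These are fragment counts, not adjusted for differences in library size or fragment length between the replicates. The peak of exon 1 had a fold enrichment of 5.37 and 5.22, and that of exon 13 of 4.42 and 4.58. A peak in exon 12 was found in replicate 1 alone, at a fold enrichment of 2.63 with 21 fragments (13.0 to 32.1) and −log10 q of 1.75, the weakest by q of the exonic member peaks. Its pile-up had 2 solutions, and 1 of them is given.

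MED1 is the subunit of the Mediator complex that binds nuclear receptors. All of its summits lay in exon 17, its last and longest exon at 6437 nt, and all in the coding part. Near 458 nt before the stop codon in replicate 1 and 441 nt in replicate 2, the fold enrichment was 7.07 and 5.97, with 67 (51.9 to 85.1) and 63 (48.4 to 80.6) IP fragments. Further upstream, 2353 and 2364 nt before the stop codon, it was 5.33 and 6.35, with 63 and 73 (57.2 to 91.8) fragments. The first place was higher in replicate 1 and the second in replicate 2, and the intervals on the fragments overlapped at both. Replicate 2 had another peak between them, 1218 nt before the stop codon, with a fold enrichment of 2.86, which overlapped the edge of the first peak of replicate 1, itself 1484 bp wide.

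MED24, another Mediator subunit at the far end of the interval, had 2 peaks near its stop codon in replicate 1. The peak 114 nt into the 3′ UTR had a fold enrichment of 5.18 with 55 IP fragments (41.4 to 71.6) over 8. The peak 166 nt before the stop codon had 4.48 with 42 fragments (30.3 to 56.8) over 7. Replicate 2 listed none, so MED24 rested on a single library. Replicate 1 also had the longer list, and no member gene had an exonic peak in replicate 2 alone.

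STARD3 encodes a cholesterol-binding protein at contacts between late endosomes and the endoplasmic reticulum. It had the highest fold enrichment of the 10 genes in replicate 1 but not in replicate 2. Its shared peak lay in the 3′ UTR, 218 nt past the stop codon in replicate 1 and 107 nt past it in replicate 2, in exon 15. In replicate 1 it had 107 IP fragments (87.7 to 129.3) over a background of 5.17, a fold enrichment of 14.6 and −log10 q of 69.95. That fold enrichment was higher than that of 96.65% of all exonic peaks. In replicate 2 it had 97 fragments (78.7 to 118.3) over 16 and a fold enrichment of 5.38. On the log2 scale the 2 values differed by 1.44, with replicate 1 higher, a ratio larger than in 96.3% of the 11916 exonic pairs of the lists. The intervals on the IP pile-up overlapped. Multiplied by the scales given above, the pile-ups were 88.8 and 90.4 fragments at STARD3, and 69.7 and 81.1 at CDK12 exon 2. Each scale fits an IP to the control of its own replicate, so these values are not on a common scale between replicates. The background was lower in replicate 1 at both places. How far library size and fragment length set these counts apart was not tested. Replicate 1 held 2 further STARD3 peaks, each 123 bp wide. The first, at position 39662370, lay outside the exons of the canonical transcript, with a fold enrichment of 8.72 and 30 IP fragments, and the second lay 970 nt past the stop codon, with 4.53 and 15 fragments. Both had a background of 1.97.

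**Figure D2:**
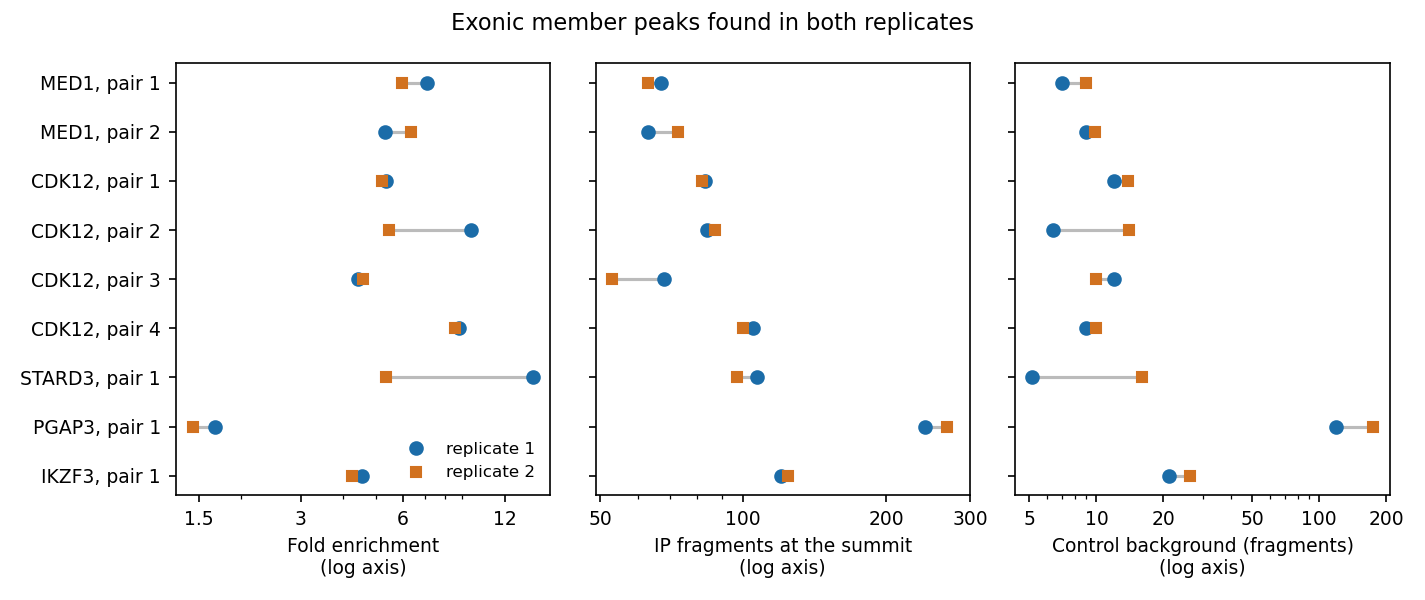
Fold enrichment, IP fragments at the summit and control background (x axes, all logarithmic) of the 9 exonic member peaks found in both replicates, in order of position within each gene. Circles are replicate 1, squares replicate 2, and lines join a pair. The widest lines for fold enrichment are those of STARD3 (14.6 and 5.38) and CDK12 exon 2 (pair 2, 9.56 and 5.47), whose backgrounds lie apart (5.17 and 16, 6.40 and 14) while their IP fragments lie close (107 and 97, 84 and 87).

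Over the 9 exonic pairs, the fold enrichment was higher in replicate 1 in 77.8% and the median log2 ratio of replicate 1 over replicate 2 was 0.09. Over all 11916 exonic pairs it was higher in replicate 1 in 79.6%, with a median of 0.43. The background ran the other way, with a median log2 ratio of −0.30 in the member pairs and −0.49 in all. These backgrounds are fragment counts, not adjusted for library size or fragment length. The lowest background of the lists was itself lower in replicate 1, at 0.491 fragments against 0.642 in replicate 2. The background ratios are therefore not read as a difference at these sites. The summits of a pair lay 0 to 134 bp apart, and at most 17 bp apart in 7 of the 9.

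PGAP3 stood at the other end of the scale. It encodes an enzyme that remodels the lipid part of GPI anchors, and its gene lies head to head with ERBB2 on the opposite strand, with overlapping gene bodies. Its shared peak lay in the 3′ UTR, 122 nt past the stop codon in replicate 1 and 133 nt past it in replicate 2. Replicate 1 had 241 IP fragments (211.5 to 273.4) over a background of 119, with a fold enrichment of 1.68 and −log10 q of 8.25. Replicate 2 had 269 fragments (237.8 to 303.1) over 174, with a fold enrichment of 1.44 and −log10 q of 4.76. A second peak in replicate 1, 1521 nt past the stop codon, had 191 fragments (164.9 to 220.1) over 88 and a fold enrichment of 1.79. The sites thus had the lowest fold enrichment and the highest pile-up of the 10 genes.

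The PGAP3 values were extreme in the whole lists as well. Only 0.343% of all exonic peaks in replicate 1 and 0.0686% in replicate 2 had a lower fold enrichment than the shared peak. Its IP pile-up ranked 1 of 24607 peaks in replicate 1 and 2 of 19318 in replicate 2, and its background ranked 3 and 2. Exonic peaks with a background of 80 fragments or more numbered 43 in replicate 1, with fold enrichments from 1.34 to 2.33 and a median of 1.70, and 109 in replicate 2, from 1.35 to 2.74 with a median of 1.79. At a background under 1 fragment the medians were 7.03 and 6.85. Since the background is the denominator of the fold enrichment, and the threshold on q admits a lower fold enrichment where the background is higher, this order is built into the measure and says nothing of why PGAP3 was low.

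By its default, which the methods say was used, the caller keeps 1 read per position and strand, so a pile-up cannot pass 2 times the fragment length, or 246 fragments at 123 bp in replicate 1 and 282 at 141 bp in replicate 2. In the lists 0 peaks passed it, and the highest pile-ups were 241 and 275. The shared PGAP3 peak stood at 97.97% and 95.4% of this ceiling. The upper ends of its Poisson intervals, 273.4 and 303.1, lie above the ceiling, so these intervals do not describe its counting error. At its background the ceiling would put the highest attainable fold enrichment at 1.71 in replicate 1 and 1.51 in replicate 2, and the listed values were 1.68 and 1.44. STARD3, by comparison, stood at 43.5% and 34.4% of the ceiling. These values do not give the share of PGAP3 transcripts that carried m6A. The same rule would also limit the control fragments, and what it did to the background at PGAP3 was not tested. How far transcript abundance, gene copies or genomic DNA set the background at PGAP3 was not tested.

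**Figure D3:**
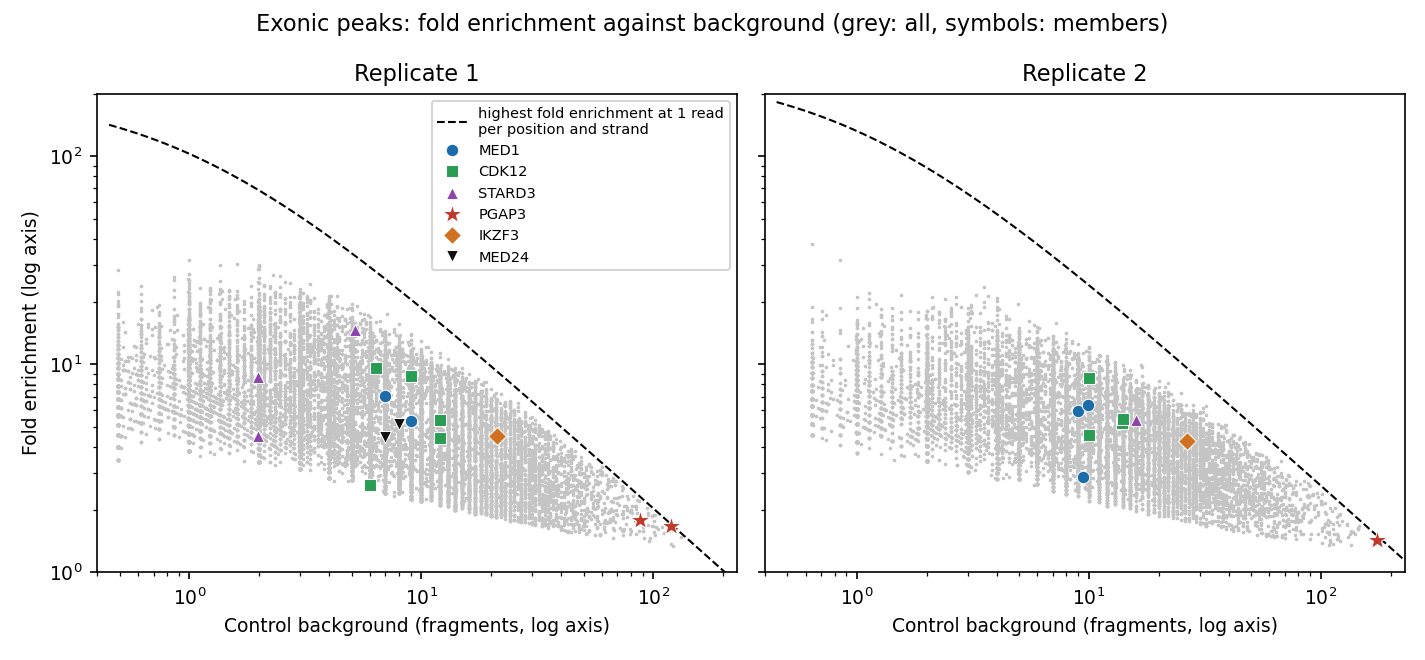
Fold enrichment (y axis, logarithmic) against control background in fragments (x axis, logarithmic) for all exonic peaks (grey) and the exonic peaks of the 10 genes (coloured symbols), by replicate. The dashed line is the highest fold enrichment that 1 read per position and strand allows. The PGAP3 stars, at backgrounds of 88 and 119 in replicate 1 and 174 in replicate 2, sit at the right end, with the shared peak just under the line.

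**Figure D4:**
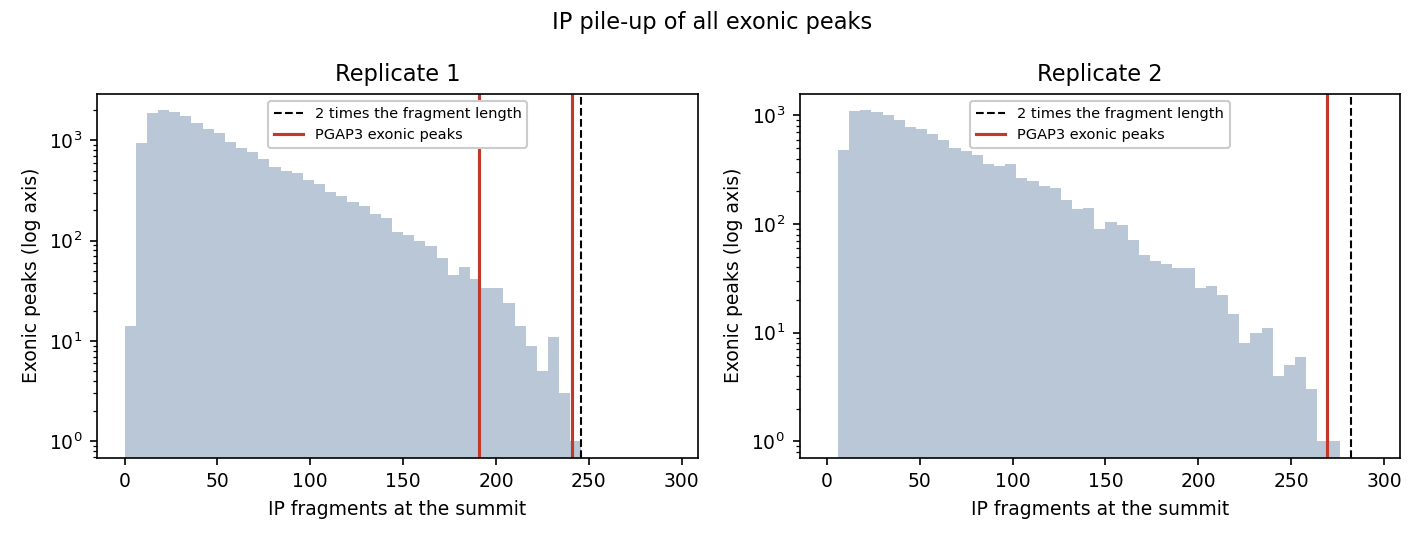
Number of exonic peaks (y axis, logarithmic) by IP fragments at the summit (x axis, bars 6 fragments wide), by replicate. Red lines mark the exonic PGAP3 peaks, at 191 and 241 fragments in replicate 1 and 269 in replicate 2, and the dashed line marks 2 times the fragment length, at 246 and 282, which no peak passes.

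ERBB2 itself had no exonic peak among its 27 exons in either list. Its transcript of 4557 nt holds 30 GGAC, or 6.58 per kb, more than 85.65% of the 20001 protein-coding transcripts compared, whose median is 3.76 per kb. The lists give values only at peaks, so the background over the exons of ERBB2 is not known from them, and whether a site there could have reached the threshold was not tested. Each replicate had a single peak in the ERBB2 gene body outside every annotated exon, in the stretch that PGAP3 also covers from the opposite strand. A gene body spans all annotated transcripts, and whether the canonical transcript of either gene covers these summits was not checked. In replicate 1 the summit lay 6004 bp from the ERBB2 start, with 46 IP fragments (33.7 to 61.4) over 16.05 and a fold enrichment of 2.30. In replicate 2 it lay 5254 bp from the start, with 52 fragments (38.8 to 68.2) over 21 and a fold enrichment of 2.25. The 2 peaks did not overlap, and the lists carry no strand, so the transcripts of ERBB2 and PGAP3 cannot be told apart there. Their backgrounds were higher than those of 98.8% and 98.99% of all intronic peaks.

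GRB7, an adaptor that binds ERBB2 and other receptor kinases, had no peak of any kind in its body, with 5.37 GGAC per kb of transcript. MIEN1, a small membrane-associated protein linked to cell migration, had none, with 3.58 per kb. TCAP, a sarcomere protein of striated muscle, had none, with 7.29 per kb. The number of GGAC per kb did not separate genes with and without peaks, since MED1, CDK12 and IKZF3, with exonic peaks in both replicates, had 3.07, 3.02 and 2.86 per kb. The transcripts of those last 3 genes were the longest of the 10, at 8137, 8287 and 9788 nt, and TCAP, MIEN1 and GRB7 had the shortest, at 960, 1397 and 2233 nt. Length did not separate them either, since ERBB2 was the next longest at 4557 nt and had no exonic peak, while the shorter transcripts of MED24 (3480 nt), STARD3 (2770 nt) and PGAP3 (2687 nt) had them.

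IKZF3 encodes the lymphoid transcription factor Aiolos. Its exonic peak had the same summit in both replicates, position 39759621, 6171 nt past the stop codon in a last exon of 8776 nt. Replicate 1 had 120 IP fragments (99.5 to 143.5) over 21.2 and a fold enrichment of 4.54, and replicate 2 had 124 (103.1 to 147.8) over 26.4 and 4.26. The background was higher than that of 90.98% and 87.5% of all exonic peaks. The 4 GGAC within 50 nt of the summit were the most at any member summit, and the adenine of the nearest lay 5 nt from it. Of 5 lymphoid markers (PTPRC, CD3E, MS4A1, CD79A and IKZF1), 0 had an exonic peak in either replicate. Peak lists do not measure expression, so a lymphoid gene without a peak may still be expressed, and since the lists carry no strand, a transcript from the opposite strand cannot be told apart from IKZF3. IKZF3 also had 2 intronic peaks in replicate 1 and 3 in replicate 2, with fold enrichments from 3.59 to 4.84, pile-ups of 9 to 30 fragments and backgrounds of 1 to 5.22.

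The 9 shared pairs lay in exons of 453 to 8776 nt of the canonical transcripts. Over all protein-coding genes, the exon under a shared summit of replicate 1 had a median length of 1609 nt (10518 summits), and that under a summit of replicate 1 alone 470.5 nt (6510 summits). In replicate 2 the medians lay close together, at 1696 nt (10756 summits) and 1484 nt (426 summits). Of the exonic peaks that replicate 1 alone had in the 10 genes, those of CDK12 exon 12 and MED24 lay in exons of 212, 542 and 149 nt, and those of STARD3 and PGAP3 in the 3′ UTR exons that also held their shared peaks or outside canonical exons.

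GGAC was found within 50 nt of the summit, on the strand of the gene, at 8 of the 15 exonic peaks in replicate 1, or 53.3% (95% Wilson interval 30.1 to 75.2%), and at 49.75% of all exonic summits. In replicate 2 it was found at 5 of 10, or 50% (23.7 to 76.3%), and at 51.5% of all. The reverse complement GTCC was found at 26.7% and 20% of the member summits, and at 31.6% and 29.6% of all. The windows of CDK12 exons 1, 2 and 13 and of the paired MED1 peaks held no GGAC, whereas those of STARD3, of IKZF3 and of the shared PGAP3 peak held at least 1. Any of the 4 runs marked above, which cannot overlap each other, was present at 14 of 15 and 10 of 10 member summits, and at 84.6% and 87.2% of all exonic summits, so a window of this width holds some such run in most places. A match is a run of letters and not a measured site.

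Peaks outside exons were few. Between the start of MED1 and the end of MED24, over 656.9 kb, there were 3 in replicate 1 and 4 in replicate 2, and all lay in introns of ERBB2, PGAP3 and IKZF3. This came to 4.57 and 6.09 per Mb, where the whole of chromosome 17 had 3.62 and 3.30 and the genome 1.46 and 2.01. The interval's values rest on few peaks and moved with the settings, to 1.52 in both replicates at a q of 1e-05 or less, to 0 in both at a fold enrichment of 5 or more, to 7.61 in replicate 1 with exons of canonical transcripts only and to 3.62 in replicate 2 with 500 kb added on each side. Among 4602 windows of the same length across the genome, 10.7% in replicate 1 and 10.8% in replicate 2 held as many or more, and the highest held 31 and 39. Of all peaks in the interval, 13.6% and 25% were non-exonic, against 17.95% and 31.6% of the whole lists. Intergenic peaks numbered 0 in both replicates. The part that genomic DNA from a multiplied locus could have in these peaks was not tested.

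The other 11 protein-coding genes of the interval were mostly without peaks. GSDMB, of the pore-forming gasdermin family, reached 7.11 and 3.90 in the first and second list, and ORMDL3, a regulator of sphingolipid synthesis, had 4.80 and 2.24. THRA, the thyroid hormone receptor alpha, lies only partly in the interval. It had 4 exonic peaks over its whole body in the first list and 0 in the second. All 19 exonic peaks of replicate 1 in the interval were those of the members, GSDMB and ORMDL3, so the 4 of THRA lay outside it. The body of THRA overlaps that of MED24 from 40058290 to 40061215. The MED24 peaks, with summits at 40019417 and 40019836 in replicate 1, lay outside this overlap. The other 8 had none.

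Genes elsewhere in the genome that were listed as related to these proteins were counted in the same way. Of 27 genes of ERBB2 signalling, 19 had an exonic peak in both replicates, 4 in replicate 1 alone and 4 in neither, beside the 33.4% of all protein-coding genes given above. The 4 with the largest shared peaks were PIK3CA, the catalytic subunit of PI3-kinase (fold enrichment 14.3 and 15.7), its regulatory subunit PIK3R1 (11.98 and 11.9), the adaptor GAB1 (14.4 and 8.87) and the Ras exchange factor SOS2 (10.0 and 7.88). Of the 30 other genes of the Mediator complex, 16 had an exonic peak in both replicates, 4 in replicate 1 alone and 10 in neither. The largest were MED7 (14.8 and 10.0), the kinase CDK19 (10.6 and 13.5), MED25 (12.5 and 8.66) and MED13L (7.38 and 8.85), all above MED1 in both replicates. Of 10 genes listed around CDK12, 5 had a peak in both and 1 in replicate 1 alone. Those with the largest shared peaks were CCNT2 (16.6 and 12.05), the close relative CDK13 (16.02 and 8.46), CCNT1 (11.6 and 7.53) and the elongation factor SUPT5H (5.16 and 2.92). A place in this list does not make a gene a binding partner of CDK12. The cyclin CCNK, also in it, had no exonic peak in either replicate. The lists were not matched for expression or length, and nothing particular to them is read from these counts.

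The labelled cell type was checked against markers in the same way. Of 10 epithelial markers, 4 had exonic peaks in both replicates (CDX2, GATA6, CDH1 and ERBB3) and VIL1 in replicate 1 alone, while EPCAM, KRT8, KRT18, KRT19 and KRT20 had none. Of 5 muscle markers, TTN had peaks in both and the other 4 had none. Of 5 fibroblast markers, COL1A1 had a peak in replicate 1 alone and the other 4 had none. Peaks need both expression and m6A, so this is a weak check of identity.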

How the data were processed

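Groups were taken from the sample labels (2 m6A IP and 2 input samples). The methods of the study state mapping to hg38 with TopHat2 and peak calling with MACS2 at default settings, while the submitters' processing notes name fastp, HISAT2 and MACS2, and releases are not given in the sources used here. The methods describe DNase-treated, fragmented total RNA and the labels UV-fixed, lysed cells. Strand is not carried by the lists. The authors deposited a fold enrichment for each peak, which is a ratio of the summit's pile-up to the local background. The deposited p-value and q-value are given as −log10. The deposited score follows from q and was not used further.

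Exons of all GENCODE version 44 transcripts were used, and the canonical transcript for positions from the stop codon. Peaks were shared at an overlap of at least 1 bp. Pile-up and background were solved from the fold enrichment and the Poisson p-value with a pseudocount of 1, within 0.02 of a whole number of fragments. At the scales found, 100% of 1500 peaks scored per list came out whole, against a median of 13.1% and 14.7% over other scales, and 92.3% and 91.6% of all peaks had 1 solution. Library totals are not listed. If the caller's default genome size of 2700000000 bp was used, the lowest backgrounds (0.491 and 0.642 fragments) imply about 13000000 and 13200000 IP fragments and 10800000 and 12300000 control fragments after duplicates were removed. Whether a control was used, and which library it was, is not given in the sources used here.

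No test was run, because only 1 group had values. The genes named were the 10 members, those of their 11 neighbours with an exonic peak, the 4 genes of each list of related genes with the strongest shared exonic peak (by the geometric mean over the replicates), and genes of the marker lists, whose other genes are only counted. The cyclin CCNK of the CDK12 list was named in addition. A further marker of the lymphoid list is not reported here. The members, lists and settings were chosen with earlier results of these data known, and the median exon lengths, the ceiling on the pile-up and the variants of GGAC were added after the values were seen. The alternatives were stricter limits on q and fold enrichment, lists of equal length, and other rules for overlap, exons, windows and the interval. The scripts were tested on simulated data. Python 3.11.15, numpy 2.4.6, scipy 1.17.1, pysam 0.24.0 and matplotlib 3.10.9 were used.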

Additional observations from a re-analysis of the deposited data

How the results depend on the processing

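Of 72 alternative values for 16 results, 52 stayed within the range taken as unchanged, 20 moved and 0 reversed. That range differed between kinds of value. In replicate 1, a share of shared exonic peaks of 46.7% (summits within 100 bp) against 60% counted as unchanged. A median fold enrichment of 5.33 (q of 1e-05 or less) against 5.18 counted as moved. These counts therefore do not measure how stable the values are. A fold enrichment of 5 or more left exonic peaks in both replicates in 3 of the 10 genes, with 8 and 6 exonic peaks, 0 intronic peaks in either replicate and 0 non-exonic peaks per Mb. A q of 1e-05 or less left 1 intronic peak in each replicate and 1.52 non-exonic peaks per Mb in each, and gave median fold enrichments of 5.33 and 5.42. It also left exonic peaks in both replicates in 4 of the 10 genes, since the PGAP3 peak of replicate 2 had a q of 1.75e-05. With an equal number of peaks per list, replicate 1 kept 1 intronic peak and a median of 5.33. With exons of canonical transcripts only, that median was 4.86, and the non-exonic peaks of replicate 1 came to 7.61 per Mb. With summits required within 100 bp, 70% of the exonic member peaks of replicate 2 were shared. GGAC within 100 nt was found at 80% of the replicate 1 summits, and an interval widened by 500 kb gave 3.62 non-exonic peaks per Mb in replicate 2. The shares over all genes and all peaks at these alternative settings are not given here. The values therefore do not say how the members stand against the lists at them. An alternative chosen after seeing the data, in which the pile-up need not be whole, gave median backgrounds of 7.74 and 11.8. No paired analysis was possible because the input samples, which share the replicate numbers, had no peak list analysed here, and no test was run. With 2 lists and at most 15 exonic peaks each, small shifts in these shares cannot be read.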
